A study of Mus musculus with 4 samples.

Results

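A set of 8 genes that encode salivary secretory proteins, mostly known from the acinar cells of the parotid gland, was followed across the salivary glands of 4 mice. They were *Amy1*, *Chia1*, *Dnase1*, *Cst10*, *Prpmp5*, *Bpifa2*, *Car6* and *Lman1l*. The 8 genes were chosen by name with their values on these arrays already known, the difference between the wild type arrays included. Each had 1 row among the 22206 transcript clusters of the table, so no choice between rows was needed. Because the values chose the genes, the levels and differences below describe them. The same holds for the p-values of the 8 genes between genotypes, from which no conclusion is drawn.

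Gene expression had been measured on 1 Affymetrix whole-transcript array per mouse in 2 *Nfkbiz*-/- mice (M47 and M49), which lack IκB-ζ, a nuclear regulator of NF-κB target genes, and in 2 *Nfkbiz*+/+ mice (M30 and M55). All were females aged 20 weeks of a mixed 129/Ola and C57BL/6 background per the study's methods, although the label of M47 names the strain ICR and the other labels name none. The mutant mice carry the knock-out allele in every tissue, and mice were housed with their own genotype after weaning, so that genotype and housing cannot be told apart. RNA came from a piece of the harvested tissue, in which parotid, submandibular and sublingual glands were pooled for each mouse, and saliva had been collected after an injection of pilocarpine, a muscarinic agonist, at the same age. The arrays hold no information on which gland a transcript came from, and in such tissue fewer cells of a type and less RNA per cell cannot be told apart. Values are log2 signals after robust multi-array average (RMA) processing, as deposited, so that a difference of 1 is a 2-fold difference.

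Acinar cells make the protein of saliva. Secretory proteins are threaded into the endoplasmic reticulum, pass through the Golgi, are stored in granules at the apical side and are released by exocytosis when autonomic nerves fire. The serous acini of the parotid gland are known for digestive and protective proteins such as amylase and, in the mouse, parotid secretory protein, while the mouse submandibular gland also makes growth factors and kallikreins in its granular ducts. In the deposited annotation 6 of the 8 genes carried the term extracellular region, *Prpmp5* the unspecific term cellular component and *Lman1l* the term membrane.

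To show start regions of the genes whose levels are described, the 100 bases before RefSeq starts (GRCm38.p6) are printed. They read 5′ to 3′ on the gene's strand, with the letters TATAA in capitals where they occur. For *Dnase1* the first of 2 searched starts is printed. The first genes are those that differed most between the wild type arrays, and *Bpifa2* and *Car6* are shown as members that were bright in every mouse.
Cst10, chr2:149405149-149405248, plus strand: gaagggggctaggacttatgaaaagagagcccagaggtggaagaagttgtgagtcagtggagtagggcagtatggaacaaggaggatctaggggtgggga
Dnase1, chr16:4036936-4037035, plus strand: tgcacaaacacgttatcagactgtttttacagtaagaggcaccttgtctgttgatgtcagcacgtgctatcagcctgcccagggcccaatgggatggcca
Chia1, chr3:106113282-106113381, plus strand: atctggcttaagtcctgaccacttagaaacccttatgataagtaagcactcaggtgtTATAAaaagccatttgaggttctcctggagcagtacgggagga
Prpmp5, chr6:132314744-132314843, minus strand: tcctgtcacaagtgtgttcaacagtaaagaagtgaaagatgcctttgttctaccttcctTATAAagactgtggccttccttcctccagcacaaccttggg
Amy1, first start, chr3:113577751-113577850, minus strand: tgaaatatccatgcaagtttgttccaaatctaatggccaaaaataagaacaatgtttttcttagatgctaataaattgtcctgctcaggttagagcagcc
Amy1, second start, chr3:113574763-113574862, minus strand: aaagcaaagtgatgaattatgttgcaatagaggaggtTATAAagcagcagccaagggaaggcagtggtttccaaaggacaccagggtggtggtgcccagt
Bpifa2, chr2:154008176-154008275, plus strand: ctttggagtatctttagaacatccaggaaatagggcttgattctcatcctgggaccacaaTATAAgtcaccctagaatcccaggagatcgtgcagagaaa
Car6, chr4:150201136-150201235, minus strand: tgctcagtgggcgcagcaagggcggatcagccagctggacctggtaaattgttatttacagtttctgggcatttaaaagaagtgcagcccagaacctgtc
TATAA, searched on the gene's strand alone, was present before the starts of *Chia1* (43 bases before the start, counted to its first letter), *Prpmp5* (41 bases), *Bpifa2* (40 bases) and the second start of *Amy1* (63 bases). It was present in 4 of the 10 windows of the 8 genes, and in 7.48% of 32851 RefSeq windows of the same length. It occurred in genes that differed between the wild type arrays and in *Bpifa2*, which differed little. CAGCTG, a palindrome that reads alike on both strands and is a form of the E-box, was found before *Car6* alone (69 bases before the start), and in 5.81% of all windows. The RefSeq starts may not be those used in the salivary gland, for *Amy1* in particular. Of *Amy1* and of *Dnase1* 2 starts each were searched. The second window of *Dnase1*, chr16:4037045-4037144, is not printed and held no TATAA. The RefSeq gene of *Dnase1* begins at 4036958, inside the printed window. A match is a description of these letters and no evidence of a binding site.

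The genes were among the brightest on the arrays. *Bpifa2*, which encodes parotid secretory protein, a member of the BPI fold family that binds bacterial lipopolysaccharide, had the highest value of all clusters in M47, M49 and M30 and rank 11 in M55. *Car6*, the secreted carbonic anhydrase, ranked from 5 to 8 in the 4 mice. *Amy1*, salivary amylase, which cleaves starch, ranked 6 or 7 in 3 mice and 64 in M55. *Dnase1*, a secreted nuclease that digests DNA, ranked from 18 to 20 in 3 mice and 911 in M55. *Cst10*, a type 2 cystatin of the family of cysteine protease inhibitors, ranked from 24 to 32 in 3 mice and 1353 in M55, and *Chia1*, an acidic chitinase that degrades chitin, ranked from 24 to 33 in 3 mice and 1701 in M55. The lowest ranks were those of *Prpmp5*, a proline-rich protein gene, and *Lman1l*, a relative of the cargo lectin Lman1 that carries glycoproteins from the endoplasmic reticulum to the Golgi. *Prpmp5* ranked from 238 to 463 in 3 mice and 9964 in M55, and *Lman1l* from 313 to 748 in the 4 mice. In M47, M49 and M30 each of the 8 genes was brighter than at least 96.69% of clusters, and in M55 *Prpmp5* was brighter than 55.13%. Probes of different clusters bind with different strength, so a rank describes the signal and does not order the amounts of RNA.

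Among the digestive and degrading enzymes, *Amy1* (chr3:113555710-113577830, minus strand, by the deposited annotation, of a build not given in the sources used here) had a log2 value of 12.87 in M47 and 12.92 in M49, against 12.94 in M30 and 10.93 in M55. The level was even in 3 mice and 4.02-fold lower in M55 than in M30. *Chia1* (chr3:106113229-106132120, plus strand) had 11.79 in M47 and 12.22 in M49, against 11.60 in M30 and 7.69 in M55. *Dnase1* (chr16:4036942-4040024, plus strand) had 12.39 in M47 and 12.47 in M49, against 12.32 in M30 and 8.34 in M55. For both enzymes M55 stood alone on the low side, 15.1-fold below M30 for *Chia1* and 15.8-fold for *Dnase1*.

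Among the other secreted proteins, *Cst10* (chr2:149405057-149410293, plus strand) had a log2 value of 11.82 in M47 and 11.71 in M49, against 12.09 in M30 and 7.91 in M55. Its difference of 4.18 between M30 and M55, or 18.1-fold, was the largest by which M30 exceeded M55 at any of the 22206 clusters. *Prpmp5* (chr6:132311590-132314757, minus strand) had 9.54 in M47 and 9.22 in M49, against 8.79 in M30 and 5.10 in M55. M55 was again the low mouse, 12.8-fold below M30, and with a value of 5.10 it lay near the median of the arrays, which was between 4.83 and 4.89.

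*Bpifa2* (chr2:154008265-154016079, plus strand) had a log2 value of 13.26 in M47 and 13.32 in M49, against 13.30 in M30 and 12.84 in M55. M55 was the lowest here too, but by 0.42 below the nearest mouse, and 1.38-fold below M30. *Car6* (chr4:150187015-150201332, minus strand) had 12.84 in M47 and 12.93 in M49, against 12.94 in M30 and 12.92 in M55. The 4 mice lay within 0.10 of one another, and M30 and M55 differed by 0.02. *Lman1l* (chr9:57607033-57620774, minus strand) had 8.44 in M47 and 8.62 in M49, against 9.11 in M30 and 8.55 in M55. The mouse that stood apart for *Lman1l* was M30, on the high side, and M55 lay between the *Nfkbiz*-/- mice.

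**Figure D1:**
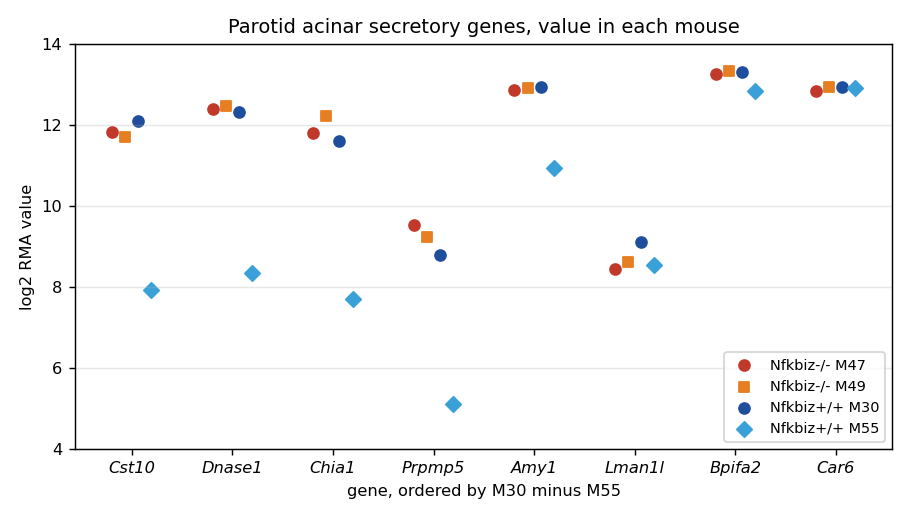
Deposited log2 RMA value (vertical axis) of each of the 8 genes (horizontal axis, ordered by M30 minus M55) in the 2 *Nfkbiz*-/- mice (M47, M49) and the 2 *Nfkbiz*+/+ mice (M30, M55), 1 point per array. For *Cst10*, *Dnase1*, *Chia1*, *Prpmp5* and *Amy1* the point of M55 lies at least 1.94 below the other 3, and for *Car6* the 4 points nearly coincide.

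Thus 5 of the 8 genes varied at least 2-fold between the wild type arrays, all with M30 higher, and 3 did not. Over all clusters 2.92% differed by at least 2-fold between M30 and M55, 1.04% with M30 higher and 1.87% with M55 higher, but nothing is read from this contrast since it entered the choice of the genes. Counted from the largest excess of M30 over M55 among the 22206 clusters, *Cst10* ranked 1, *Dnase1* 2, *Chia1* 3, *Prpmp5* 4 and *Amy1* 19. On this signed ranking *Lman1l* was 1795 and *Bpifa2* 2738. By absolute difference the ranks were 5 for *Cst10*, 6 for *Dnase1*, 7 for *Chia1*, 8 for *Prpmp5* and 61 for *Amy1*. *Lman1l* was 3728 and *Bpifa2* 5556 by absolute difference. The difference nearest above the 2-fold line was that of *Amy1*, 2.01 on the log2 scale, and the nearest below it was that of *Lman1l*, 0.56. The differences of *Lman1l*, *Bpifa2* and *Car6* were all under 0.6, as were those of 85.3% of clusters. The median of M30 minus M55 was 2.84 over the 8 genes and 0.01 over all clusters, and the absolute difference had a median of 0.27 and a 95th percentile of 0.87 over all clusters.

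The *Nfkbiz*-/- arrays, which were not part of the wild type contrast, differed little at these genes. M47 and M49 lay from 0.05 (*Amy1*) to 0.43 (*Chia1*) apart, with a median of 0.10, and 0 of the 8 genes differed by 2-fold. Over all clusters 1.27% did so between M47 and M49. The wild type mouse M30 lay inside the *Nfkbiz*-/- range for 1 of the 8 genes. It lay 0.05 above the *Nfkbiz*-/- mean for *Amy1*, 0.11 below it for *Dnase1*, 0.40 below it for *Chia1*, 0.59 below it for *Prpmp5* and 0.33 above it for *Cst10*. It lay 0.59 above it for *Lman1l*, 0.05 for *Car6* and 0.01 for *Bpifa2*. M55 lay below the same mean by 1.96 for *Amy1*, 4.09 for *Dnase1*, 4.31 for *Chia1*, 4.28 for *Prpmp5* and 3.85 for *Cst10*. For these 5 genes the other 3 mice spanned 0.07 to 0.75, and M55 was at least 3.83-fold below the lowest of them. At 45 of all clusters, or 0.203%, M55 was at least 2-fold below each other mouse. These were the 5 genes and 40 others.

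**Figure D2:**
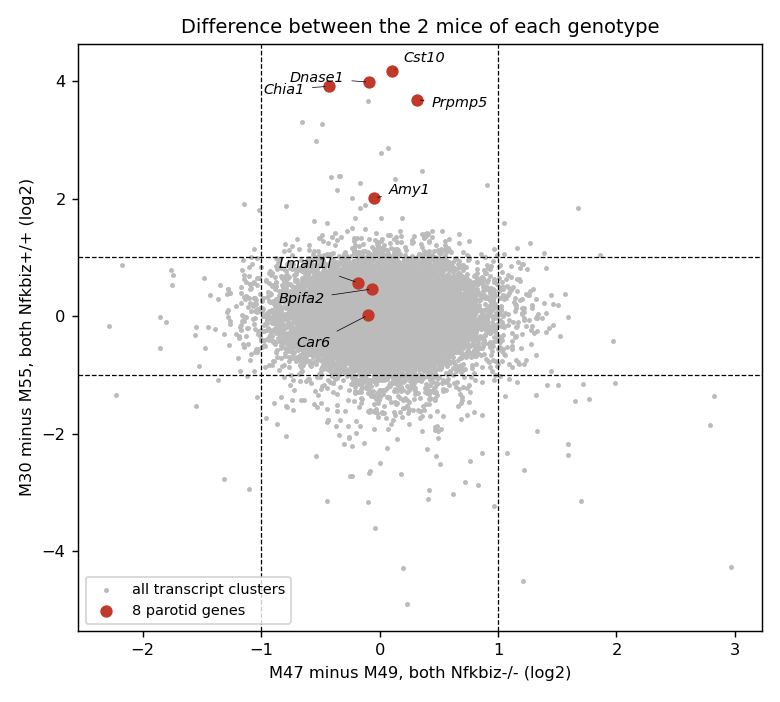
Difference between the 2 *Nfkbiz*+/+ arrays (vertical axis, M30 minus M55, log2) against that between the 2 *Nfkbiz*-/- arrays (horizontal axis, M47 minus M49, log2), with 1 point per transcript cluster in grey, the 8 genes in red and dashed lines at 2-fold. The 5 varying genes lie above the upper line, from 2.01 to 4.18, while all 8 lie within 0.43 of 0 on the horizontal axis.

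The genes fell into shapes by the distance between their values over the 4 arrays, each gene's own mean subtracted. Among the genes low in M55, *Chia1* and *Dnase1* were 0.36 apart, *Dnase1* and *Cst10* 0.39, and *Dnase1* and *Prpmp5* 0.49. *Amy1* was also lowest in M55 but by less, and its nearest member was *Bpifa2*, at 1.32. *Car6* and *Bpifa2* were 0.41 apart and *Car6* and *Lman1l* 0.47. With 4 arrays, and M55 setting most of the spread, these distances describe how a gene stood in M55.

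The 4 genes with the widest difference had neighbours in common by the same measure. With predicted genes and other members left aside, *Cldn22*, a claudin of the tight junction family, *St3gal6*, a sialyltransferase that caps glycans with sialic acid, and *Ggh*, a gamma-glutamyl hydrolase, were the 3 nearest to *Chia1* (*St3gal6* at 0.67), to *Dnase1* (*Cldn22* at 0.72) and to *Prpmp5* (*St3gal6* at 0.78). On the same terms the nearest to *Cst10* were *Cldn22* at 0.78, *Ggh* at 0.94 and *Smr3a*, a secretory gene of the submaxillary gland, at 1.05. *Amy1* had *Amy2b* at 0.14, the ribonuclease gene *Rnase1* at 0.15 and *Smr2* at 0.26. *Ggh* had 11.09 in M47 and 11.02 in M49, against 10.68 in M30 and 7.83 in M55, and *Smr3a* had 12.87, 12.87, 12.86 and 10.08 in the same order. Both were thus bright in 3 mice and low in M55. The predicted gene *2310057J18Rik*, named after its values were seen, had 11.55, 11.65, 11.41 and 7.75, and with 3.66 it ranked 5 by M30 minus M55. With other members left aside, it lay nearer to these genes than any neighbour named above. It was 0.24 from *Dnase1*, 0.45 from *Chia1*, 0.47 from *Cst10* and 0.51 from *Prpmp5*. Genes with a flat profile have many neighbours: 353 clusters lay within 0.1 of *Car6*, 85 of *Bpifa2* and 30 of *Lman1l*, so the nearest are not particular. They were *Hmgb3*, *Zfp760* and *Gpc4* for *Car6*, *Pglyrp3*, *Olfr1090* and *Itln1* for *Bpifa2*, and *Spic*, *Nop16* and *Fgfr4* for *Lman1l*.

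Amylase relatives shared the difference between the wild type arrays: all 6 other amylase clusters were at least 2-fold higher in M30 than in M55, from 1.62 for *Amy2a1* to 2.38 for *Amy2a3*, with a median of 2.25. *Amy2a3*, for example, had 8.80 in M47 and 9.14 in M49, against 9.35 in M30 and 6.97 in M55. The amylase genes are related in sequence, and probes of one may bind transcripts of another, so how much of this signal is *Amy1* is uncertain. Of the 52 relatives in other families 3 differed by 2-fold, or 5.77%, but only 22 had a mean above the median cluster (4.86), and dimmer genes have little room to be lower in 1 mouse. Of 15 other BPI fold genes 2 were 2-fold higher in M30, *Lbp*, the lipopolysaccharide-binding protein (1.67), and *Bpifb1* (1.29), and the median was 0.35. None of the 8 other type 2 cystatins (median 0.48), 7 chitinases and chitinase-like genes (median 0.07) or 5 other deoxyribonucleases (median 0.19) differed by 2-fold. The proline-rich protein genes *Prp2* and *Prh1* differed by 0.14 and 0.35. Of 15 other carbonic anhydrases 1 differed by 2-fold, *Car3*, which is abundant in fat and muscle, with 2.72 more in M55, and the median was −0.09.

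Of 54 genes of the acinar secretory machinery 1 differed by 2-fold between the wild type arrays, or 1.85%, near the 2.92% of all clusters. Of 12 transcription factors of acinar cells 1 was 2-fold higher in M30, *Creb3l1*, an activator of secretory pathway genes, with 10.09 in M47 and 10.11 in M49, against 10.57 in M30 and 9.47 in M55. M55 was the lowest of the 4. *Etv1* was lowest in M55 too, at 8.35 against 9.19 to 9.41 in the other mice. *Bhlha15*, which encodes Mist1, the factor that keeps up the secretory architecture of acinar cells, had 9.34 in M47 and 8.95 in M49, against 9.09 in M30 and 9.30 in M55, and the mice of the genotypes overlapped. *Xbp1*, a factor of the unfolded protein response, differed by 0.05, with M55 higher. None of 13 cargo receptors between the endoplasmic reticulum and the Golgi (median −0.11, M30 minus M55), 16 genes of granule exocytosis (median −0.15) or 13 genes of fluid secretion (median −0.06) differed by 2-fold.

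Markers of other cells moved with M55. Over 16 genes of the granular convoluted ducts of the submandibular gland 16 were higher in M55 than in M30, 10 by at least 2-fold, with a median of −1.15 for M30 minus M55. Their summed linear signal was 39700 to 42120 in *Nfkbiz*-/- mice, 31530 in M30 and 59570 in M55. So M30 was low and M55 high against both *Nfkbiz*-/- mice. Of 8 fat cell genes 6 were at least 2-fold higher in M55 (*Fabp4* by 3.62 and *Adipoq* by 2.77), and their summed signal was 119.8 to 135.1 in *Nfkbiz*-/- mice, 177.2 in M30 and 808.1 in M55. Of 8 skeletal muscle genes 5 were (*Myh4* by 4.90), with a sum of 108.7 to 115.3 in *Nfkbiz*-/- mice, 121.7 in M30 and 332.3 in M55. The gland piece of M55 thus carried more signal of fat, muscle and granular ducts than any other. The 3 listed submandibular acinar genes did not move with it: *Smgc*, *Prol1* and *Pip* differed by 0.14 or less. Their sum was 18620 to 19100 in *Nfkbiz*-/- mice and 19740 to 20310 in *Nfkbiz*+/+ mice. They do not stand for all secretory genes of that gland. *Smr3a*, named above and not on the list, had 12.86 in M30 and 10.08 in M55. The 6 sublingual acinar genes had a median of 0.10, and 1 of them, *Galnt12*, was 2-fold higher in M30 (1.83). Their sum was 8421 to 8611 in *Nfkbiz*-/- and 12880 to 13580 in *Nfkbiz*+/+ mice. It was set mostly by *Dcpp2* and *Dcpp3*, by far the brightest of the list. As *Nfkbiz*-/- minus *Nfkbiz*+/+ these differed by −0.67 and −0.61, and *Agr2* by −1.41. *Galnt12* (0.24), *Bpifb2* (0.06) and *Muc5b* (0.01) differed little by genotype, and *Galnt12* was lowest in M55. The 5 erythroid genes, with a median of 0.47, summed to 227.1 and 653.1 in *Nfkbiz*-/- mice, 5028 in M30 and 3138 in M55. *Hba-a1* and *Hba-a2*, which had the same value on every array, both entered this sum. Of 10 lymphocyte genes *Cd3e* was 4.27 higher in M55 and *Cd79a* 1.08 higher in M30, with a median of 0.06. The 10 duct genes had a median of −0.26, with 1 at least 2-fold higher in M55, and the 6 myoepithelial genes had −0.29. No marker was listed at 0. By comparison the 8 secretory genes summed to 38220 and 40590 in *Nfkbiz*-/- mice, 39390 in M30 and 18200 in M55. The part of these markers in the difference of M55 was not tested.

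**Figure D3:**
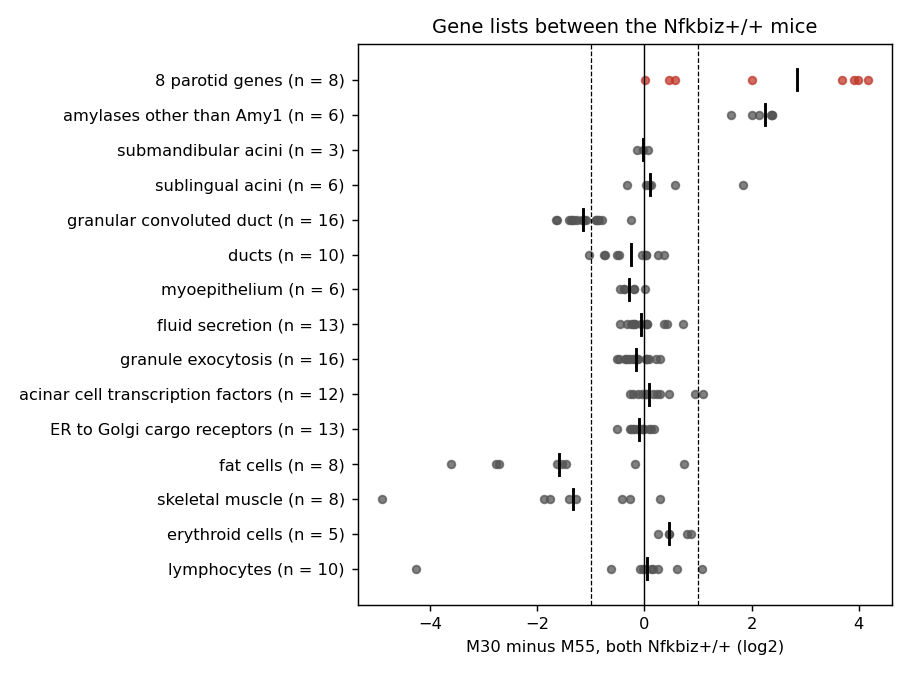
M30 minus M55 on the log2 scale (horizontal axis) for the 8 secretory genes in red and for the genes of further lists (rows: the other amylases, cell type markers and secretory machinery) in grey, 1 point per gene, with a tick at each list's median and dashed lines at 2-fold. Amylases lie above 0 with a median of 2.25, and the genes of granular ducts, fat and muscle lie mostly below 0, with medians of −1.15, −1.59 and −1.34.

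Between genotypes, differences are given as *Nfkbiz*-/- minus *Nfkbiz*+/+ from limma, and a cluster was called at an unadjusted p under 0.05 and at least a 1.5-fold difference, the thresholds met by every row of the deposited table of DEGs. Of the 8 genes 1 was called, *Prpmp5*, higher in *Nfkbiz*-/- glands, beside 2.93% of all clusters called higher and 6.62% in either direction. *Prpmp5* had a log2 mean of 9.38 ± 0.22 (SD, n = 2) in *Nfkbiz*-/- and 6.94 ± 2.60 (SD, n = 2) in *Nfkbiz*+/+ mice, with a log2 fold change of 2.44 (SE 0.97, adjusted p = 0.522 in limma). The spread was that between M30 and M55. *Chia1* (2.36, SE 1.03), *Dnase1* (2.10, SE 1.05), *Cst10* (1.76, SE 1.10) and *Amy1* (0.96, SE 0.55) had unadjusted limma p-values of 0.0539, 0.0820, 0.149 and 0.125 and did not pass. M30 and M55, whose values were known when the genes were chosen, are the whole wild type group of this comparison. The call of *Prpmp5* and the p-values of the 8 genes, here and below, are thus descriptions and no evidence of a genotype difference. The members under 2-fold apart between the wild type mice had log2 fold changes that did not pass, with narrower 95% intervals: −0.04 for *Car6* (−0.51 to 0.43), 0.22 for *Bpifa2* (−0.32 to 0.76) and −0.30 for *Lman1l* (−0.89 to 0.28). The median log2 fold change was 1.36 over the 8 genes and −0.02 over all clusters. Across the table limma gave 0 clusters with an adjusted p under 0.05 and 2015 with an unadjusted p under 0.05, and an exact 2-sided permutation test of 2 mice against 2 cannot go below p = 0.333.

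The genotype values of the varying genes depended on which wild type mouse was kept. With M55 left out the fitted difference was 0.59 for *Prpmp5*, 0.40 for *Chia1*, 0.11 for *Dnase1*, −0.05 for *Amy1* and −0.33 for *Cst10*, so that the last pair changed sign. Of the 8 genes 0 were then called higher, beside 4.61% of clusters, and *Lman1l* was called lower (−0.59). The share of all clusters called lower without M55 is not given here, and M30 was the one wild type array left. Nothing is therefore read from the call of *Lman1l*. Without M30 the same values were 4.28, 4.31, 4.09, 1.96 and 3.85, and these 5 genes were called higher, beside 4.97% of clusters. These genes were chosen with the low values of M55 known, so the calls restate that choice and no p is given. Such a fit leaves M55 as the one wild type array and assumes that it varies like the *Nfkbiz*-/- pair. Without M47 or without M49 none of the 8 was called.

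**Figure D4:**
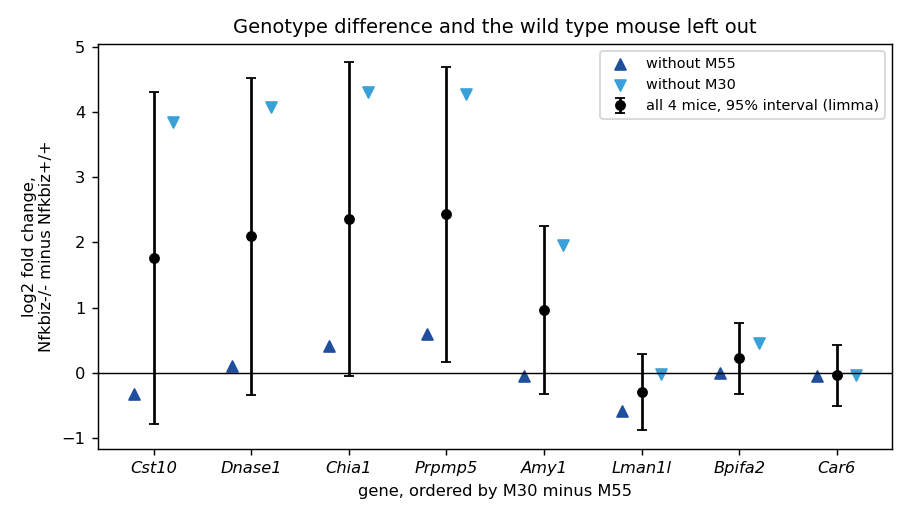
Log2 fold change between genotypes, *Nfkbiz*-/- minus *Nfkbiz*+/+, of each of the 8 genes from limma with its 95% interval, and the fitted values without M55 and without M30 as triangles. For *Prpmp5* the value of 2.44 lies between 0.59 without M55 and 4.28 without M30, and for *Car6* the 3 values nearly coincide.

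Of 58 relatives 4 were called between genotypes, or 6.9%, and of 54 genes of the secretory machinery 7, or 13%, beside 6.62% of all clusters. None of the 6 other amylases, 8 cystatins or 5 deoxyribonucleases was called. *Prp2*, a proline-rich protein gene, was called higher in *Nfkbiz*-/- glands (0.99), with 6.99 in M47 and 5.77 in M49 against 5.46 in M30 and 5.32 in M55, as were *Pltp* (1.12), a lipid transfer protein of the BPI fold family, and *Ovgp1* (0.87), a chitinase-like gene. *Car3* was called lower (−2.12). Of the secretory machinery, 3 genes were called higher: *Creb3l2* (0.95), a relative of *Creb3l1*, and of fluid secretion the calcium-activated chloride channel gene *Ano1* (0.62) and the potassium channel gene *Kcnma1* (0.60). Called lower were the cargo receptor gene *Tmed2* (−0.60), the acinar factor gene *Nr5a2* (−0.93), and the granule genes *Rab27b* (−0.63) and *Vamp8* (−0.76), whose products dock and fuse granules. None had an adjusted p under 0.05 in limma. Beside these calls, 17 of 72 cell type markers were called, or 23.6%. Lower in *Nfkbiz*-/- glands were 3 of the 6 sublingual acinar markers (*Agr2* −1.41, *Dcpp2* −0.67 and *Dcpp3* −0.61). So were 4 of 5 erythroid, 4 of 8 fat cell and 3 of 8 skeletal muscle genes. The erythroid genes *Hba-a1* and *Hba-a2* had the same value on every array. They are no separate measurements, though each is counted here and among the 17 of 72. Higher were 2 of 16 granular duct genes and 1 of 10 duct genes. The part of these markers in the other differences was not tested.

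The brightest members lay close to the top of the arrays. *Bpifa2* held the highest value in 3 arrays and lay 0.37 below it in M55, and *Car6* lay 0.29 to 0.42 below the highest value in every array. *Amy1* lay 0.36 to 0.41 below it in 3 arrays and 2.27 below it in M55. Whether signal so near the maximum narrows the differences of *Bpifa2* and *Car6* was not tested.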

How the data were processed

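RNA of 4 mice was hybridized to 1 array each. The authors labelled it with the GeneChip WT PLUS kit and deposited gene-level RMA values on the log2 scale, made in Affymetrix Power Tools, with the annotation's version not given in the sources used here; 2 deposited tables held the same values. The authors' own fold changes, p-values and tables of DEGs, GO and KEGG terms were not used, except that the call thresholds follow the table of DEGs. Precision is limited by the number of arrays, which have no read depth. The limma p-values rest on the spread between these mice, moderated by the variance over all clusters. For *Prpmp5* the unadjusted p was 0.0385 in limma and 0.318 in the t-test with equal variances.

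The values were used as deposited. Genotypes were compared by the moderated linear model of limma 3.58.1 (lmFit and eBayes, R 4.3.3, 2 residual and 5.53 prior degrees of freedom), with Benjamini-Hochberg adjustment over 22206 clusters, and the procedure was tested on simulated data. Mice were grouped by their labels. The members, the lists of relatives, machinery and markers and the tests were chosen with earlier results of these data known. Text names all members, the 3 nearest clusters of each, and of each list relatives or up to 3 genes with the largest difference; *Bhlha15*, *Xbp1*, *Etv1* and further list genes were named after their values were seen. Absent from the table were *Prb1*, *Muc10*, *Muc19*, *Dcpp1* and *Klk1b26*. Promoter windows are from RefSeq (GRCm38.p6), where all 8 genes matched and lay on the annotated chromosome. Alternatives were t-tests, an intensity trend, other normalizations, thresholds and filters, and leaving out each mouse.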

Additional observations from a re-analysis of the deposited data

How the results depend on the processing

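The 5 genes that differed by at least 2-fold between M30 and M55 did so after another quantile normalization, with median-centred arrays, at a 1.5-fold or a 3-fold threshold and in the other deposited table; leaving out a wild type mouse gives no value there. *Car6* differed by 0.02 with M30 higher, and by 0.01 and 0.03 with M55 higher after quantile normalization and median centring. The count of 1 member called between genotypes became 2 with an intensity trend (*Chia1* added), and 0 with the methods' t-test with equal or with unequal variances, over clusters above the median signal (*Prpmp5* unadjusted p of 0.0506) and at an adjusted p of 0.05. Without a fold threshold, a setting chosen after seeing the data, it stayed 1. Leaving out each mouse gave 0 to 5, and medians of the genotype difference from −0.029 (without M55) to 2.91 (without M30). Log2 fold changes changed sign for *Amy1* (−0.047 without M55 to 1.96 without M30), *Bpifa2* (−0.011 to 0.45 likewise), *Cst10* (−0.33 to 3.85 likewise) and *Car6* (−0.087 without M49 to 0.0079 without M47). No paired analysis was possible because the genotypes share no mouse numbers. With 2 arrays per genotype, and M55 apart from the rest, the limma 95% intervals of the varying genes were wide (0.17 to 4.70 for *Prpmp5*).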

Other observations

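Besides fat and muscle genes, several immediate early and inflammatory genes were among those by which M55 exceeded M30 most. *Egr1*, an early response transcription factor gene, had a log2 value of 8.70 in M47 and 7.49 in M49, against 5.26 in M30 and 9.76 in M55. *Atf3*, a stress response factor gene, had 8.83, 7.86, 6.14 and 9.37 in the same order, *Nr4a3*, a nuclear receptor gene, 9.09, 9.19, 6.07 and 9.23, and *Tnf*, a cytokine gene, 5.74, 4.03, 2.99 and 6.15. For these 4 genes M55 was the highest mouse and M30 the lowest. The genes were named after their values were seen, and no test was made of them. *Ucp1*, the uncoupling protein of brown fat, had 4.10, 3.91, 3.55 and 7.83, where M55 alone was high.

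Across all clusters, M30 was the one mouse at least 2-fold below each other at 76, M55 at 45, M47 at 14 and M49 at 10.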
